A study of Mus musculus with 12 samples.

Results

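The 10 Toll-like receptor genes Tlr1 to Tlr9 and Tlr13 were followed across a mouse study of nonalcoholic steatohepatitis (NASH), in which fat and inflammation build up in the liver. They were chosen by gene symbol, are 10 of the 41325 genes in each table, and all 10 were among the 16456 genes with enough reads to be tested. Poly(A) RNA was sequenced from mouse liver (strain C57BL/6J, genotype WT, that is wild type), as 12 libraries in 3 groups of 4. Control livers came from mice given vehicle. The other groups carried NASH, labelled as CDAHFD-treated (a diet lacking choline, rich in fat and defined in its amino acids), and the mice were dosed with vehicle (NASH vehicle) or with CDDO-Me at 10 mg/kg by mouth for 8 weeks (CDDO-Me). CDDO-Me, or bardoxolone methyl, is a synthetic triterpenoid known as an activator of the transcription factor NRF2. The labels give no diet for the control mice and no age or sex, and there was no control group on CDDO-Me. The labels number the libraries within a group but do not say how animals map to libraries, so the p-values measure the spread between these libraries.

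Toll-like receptors are membrane proteins of the innate immune system that recognise molecules of microbes and, in some settings, of damaged tissue. Tlr1, Tlr2, Tlr4, Tlr5 and Tlr6 sit at the cell surface and respond to lipoproteins, lipopolysaccharide or flagellin, whereas Tlr3, Tlr7, Tlr8, Tlr9 and Tlr13 sit in endosomes and respond to nucleic acids. In the liver they are best known from Kupffer cells, recruited macrophages and other non-parenchymal cells, and hepatocytes carry some of them. All except Tlr3 pass their signal through the adaptor Myd88.

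Each library held 28161057 to 33852338 reads on genes. CPM below are read counts scaled to library size and by TMM, a method that evens out differences in RNA composition. Its factors were 0.73 to 0.83 in control, 1.11 to 1.31 in NASH vehicle and 0.97 to 1.2 in CDDO-Me libraries. Hepatocyte markers were the most abundant marker list in every group, at summed levels of 77422 to 94376 CPM in control, 31370 to 51298 CPM in NASH vehicle and 32980 to 50248 CPM in CDDO-Me libraries. In bulk liver, more cells of a type and more RNA per cell cannot be told apart. Control 3 stood apart from the other controls, with smooth muscle markers at 471 CPM against 22.3 to 31.3 CPM and cholangiocyte markers at 315 CPM against 45.4 to 83.6 CPM. CDDO-Me 4 held 185 CPM of smooth muscle markers against 37.4 to 77.4 CPM in its group. It was also the highest of its group in macrophage markers, at 1887 CPM against 1036 to 1450 CPM, and the lowest in hepatocyte markers. Values are therefore given with and without control 3 and CDDO-Me 4 where a member's call turns on it.

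In control livers the receptors were scarce. TPM, a share of transcripts that accounts for gene length, summed over the 10 genes to 4.70, 4.72, 12.8 and 4.90 in controls 1 to 4. Tlr5, the flagellin receptor, was the most abundant member in 3 of the 4 controls, with a mean of 1.88 ± 0.21 TPM (SD, n = 4), and Tlr3, the receptor for double-stranded RNA, followed at 1.27 ± 0.59 TPM. Tlr2, the partner of Tlr1 and Tlr6 in lipoprotein sensing, averaged 2.13 ± 2.87 TPM, but that mean rested on control 3, with 6.43 TPM against 0.51 to 0.92 TPM in the others. Tlr4, the lipopolysaccharide receptor, stood at 0.60 ± 0.56 TPM, again highest in control 3 at 1.44 TPM. Tlr7, Tlr13, Tlr6, Tlr1, Tlr8 and Tlr9 had means of 0.21 TPM or less, and of the neighbours in this order only Tlr4 and Tlr7 had ranges that did not overlap. Tlr3 and Tlr5 together made up 59.4% to 61.7% of the receptor TPM in controls 1, 2 and 4, and 30.4% in control 3. Tlr12, a mouse receptor outside the set of 10, was at 4.28 to 6.09 TPM in control livers, above Tlr5 in each of them. It was at 10.03 to 17.2 TPM in NASH vehicle and 6.79 to 11.4 TPM in CDDO-Me livers, where its mean of 8.63 TPM was above that of Tlr13. In TMM-scaled counts Tlr12 differed less from control. Its log2 fold change was 0.50 ± 0.20 (SE) in NASH vehicle (edgeR adjusted p = 0.046) and 0.04 ± 0.20 in CDDO-Me livers (edgeR adjusted p = 0.9). Its CPM overlapped those of control in both.

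TPM are not scaled by TMM, so their differences between groups include a shift shared by most genes. On log2(TPM + 1) values the median of all tested genes was 0.51 in NASH vehicle against control and -0.16 in CDDO-Me against NASH vehicle. Fold changes between groups are given below from TMM-scaled counts. In NASH vehicle livers Tlr2 and Tlr13 had the highest means of the 10 genes. The summed level of the 10 genes was 49.5, 71.7, 80.1 and 82.7 TPM in libraries 1 to 4. Tlr2 led at 21.5 ± 4.0 TPM, followed by Tlr13, a receptor for bacterial ribosomal RNA that mice have and humans lack, at 16.4 ± 4.8 TPM. Those 2 genes made up 50.6% to 55.7% of the sum, and Tlr3 and Tlr5 together 8.94% to 14.3%. Next came Tlr1 (7.15 ± 1.76 TPM), Tlr7 (5.72 ± 1.5 TPM), Tlr3 (5.68 ± 0.70 TPM), Tlr8 (5.53 ± 1.66 TPM), Tlr4 (3.26 ± 0.79 TPM), Tlr9 (2.24 ± 0.65 TPM), Tlr6 (2.15 ± 0.45 TPM) and Tlr5 (1.43 ± 0.43 TPM). Between neighbours, only Tlr13 and Tlr1 had ranges that did not overlap. In CDDO-Me livers the sum was 34.4, 26.5, 24.5 and 45.1 TPM in libraries 1 to 4, below every NASH vehicle library. Tlr2 (9.97 ± 1.83 TPM) and Tlr13 (7.53 ± 3.77 TPM) again led among the 10 genes and made up 51.7% to 54.7% of the sum, with Tlr9 lowest at 0.81 ± 0.24 TPM, and all neighbours in the order overlapped.

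**Figure D1:**
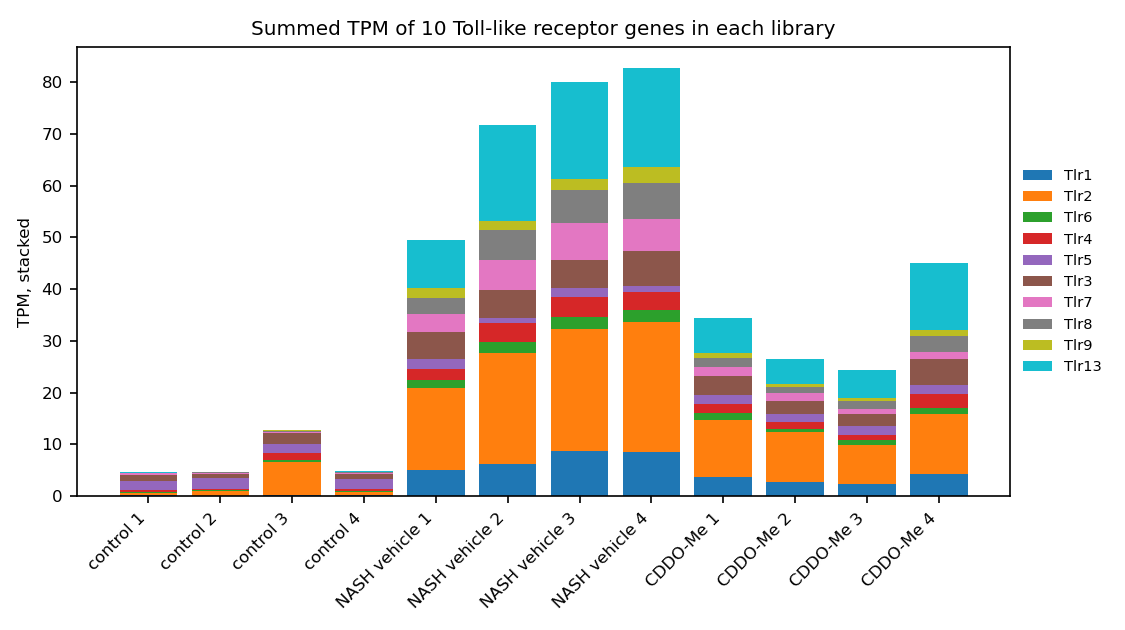
Summed TPM of the 10 Toll-like receptor genes (vertical axis) in each of the 12 libraries, with 1 colour for each gene. TPM are not scaled by TMM, and on log2(TPM + 1) values the median of all tested genes was 0.51 in NASH vehicle against control. Controls 1, 2 and 4 sum to 4.70 to 4.90 TPM and control 3 to 12.8 TPM, against 49.5 to 82.7 TPM in NASH vehicle and 24.5 to 45.1 TPM in CDDO-Me libraries; Tlr2 and Tlr13 fill 50.6% to 55.7% of the sum in NASH vehicle and 51.7% to 54.7% in CDDO-Me libraries.

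The first comparison set NASH vehicle against control livers and shows how the receptors differ in diet-induced disease. Of the 10 genes, 9 rose and 1, Tlr5, fell (edgeR quasi-likelihood test, Benjamini-Hochberg adjusted over 16456 genes). Over all tested genes 29.6% rose and 30.0% fell, so that 49.6% of the calls were higher, against 88.2% without TMM and 92.6% on log2(TPM + 1) values. The median log2 fold change of the 10 genes was 3.36, against -0.01 for all tested genes. No NASH vehicle library overlapped a control library for any of the 10 genes in CPM, which held for 27.0% of all tested genes in the higher and 27.4% in the lower direction.

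Among the endosomal receptors, Tlr13 (chrX:106143204-106160493, GRCm38, plus strand) changed most. Its level was 0.54, 0.37, 0.44 and 0.63 CPM in controls 1 to 4, from 48 reads in all, and 14.01, 27.5, 23.1 and 27.0 CPM in NASH vehicle 1 to 4. Every NASH library was far above every control, and the fitted log2 fold change was 5.52 ± 0.33 (SE, edgeR adjusted p = 6.3e-08). The ratio of mean CPM was 46.8, with a 95% interval for counting error alone of 35.2 to 63.6. Tlr8, a nucleic acid receptor next to Tlr7 on the X chromosome (chrX:167242696-167264329, minus strand), rose from 0.15, 0.18, 0.15 and 0.45 CPM to 4.03, 8.16, 7.73 and 8.75 CPM. That is a log2 fold change of 4.94 ± 0.43 (edgeR adjusted p = 8.1e-07), and control 4 was the highest of its group. Tlr7, the receptor for single-stranded RNA (chrX:167304929-167330558, minus strand), rose from 0.58, 0.46, 0.44 and 0.45 CPM to 5.52, 8.49, 8.74 and 9.04 CPM. Its log2 fold change was 4.03 ± 0.24 (edgeR adjusted p = 4.4e-08), with NASH vehicle 1 the lowest of its group, as it was for Tlr8 and Tlr13. That library was also the lowest of its group in macrophage markers, at 1892 CPM against 3056 to 3601 CPM. In hepatocyte markers it was the highest, at 51298 CPM against 31370 to 36035 CPM. The part of this in its receptor values was not tested.

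Tlr9, the receptor for DNA with unmethylated CpG (chr9:106222598-106226883, plus strand), was the least abundant in control. It had 2, 0, 8 and 0 reads in controls 1 to 4. The libraries with 0 reads allow up to 3 reads, or 0.138 and 0.134 CPM. NASH vehicle libraries held 78, 72, 87 and 134 reads, or 2.33, 1.98, 2.14 and 3.55 CPM. The groups were apart, and the log2 fold change was 4.59 ± 0.64 (edgeR adjusted p = 4e-05). With only 10 control reads its ratio of mean CPM, 24.3, carries a counting interval of 13.1 to 51.1. Tlr3 (chr8:45395665-45411080, minus strand) rose least of the 9 genes. It went from 4.53, 2.91, 5.96 and 2.55 CPM to 10.2, 9.97, 8.59 and 12.1 CPM, a log2 fold change of 1.35 ± 0.25 (edgeR adjusted p = 0.00036).

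**Figure D2:**
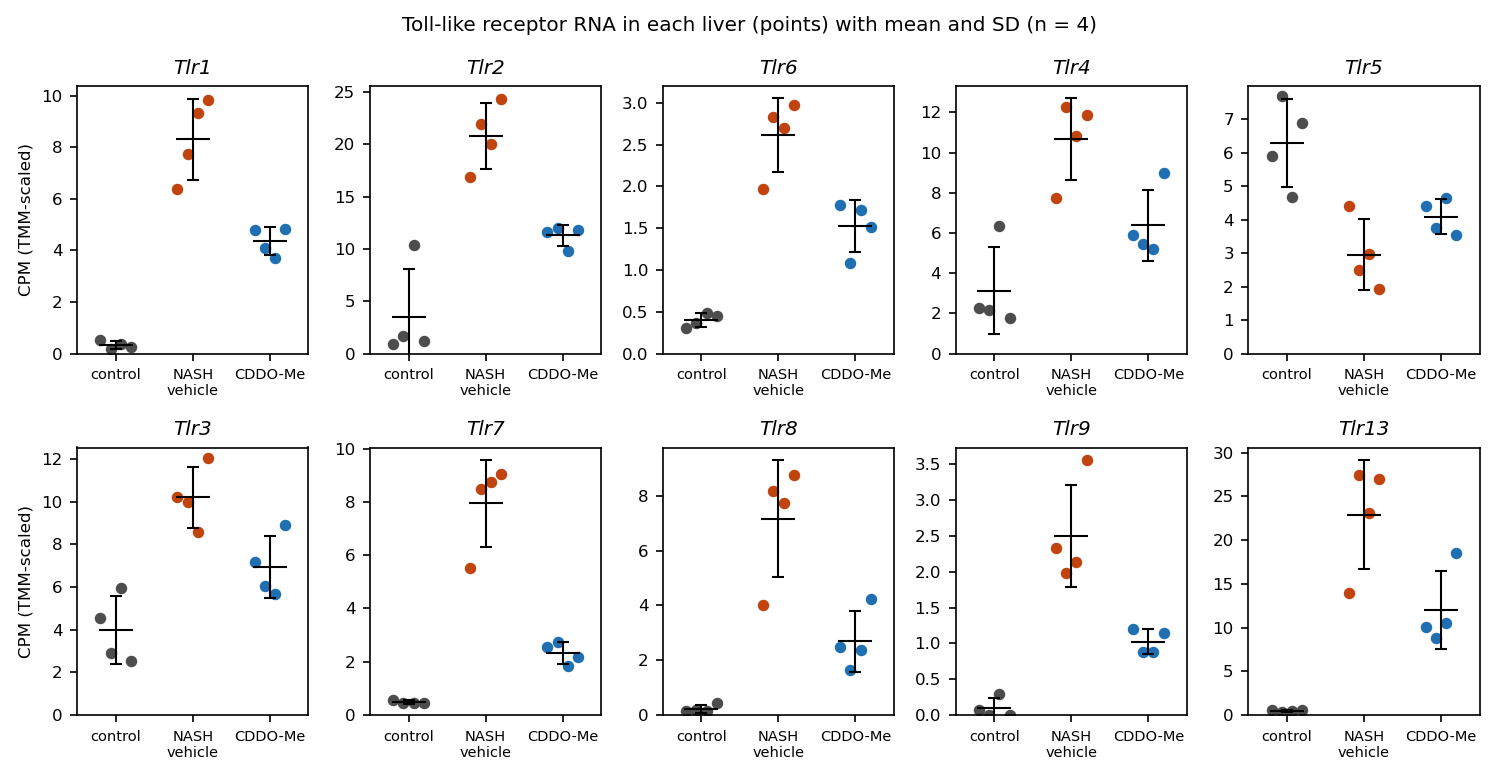
Level of each Toll-like receptor gene in CPM (vertical axes, which differ between panels) in every library of the control, NASH vehicle and CDDO-Me groups, with the mean as a long bar and the SD as whiskers (n = 4). For Tlr1, Tlr6, Tlr7, Tlr8, Tlr9 and Tlr13 all controls lie at 0.63 CPM or less and all NASH vehicle libraries at 1.97 CPM or more; for Tlr5 the controls are highest, and for Tlr2 and Tlr4 control 3 stands above its group.

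Among the surface receptors, Tlr1 (chr5:64924679-64933563, minus strand) rose most. It was at 0.54, 0.18, 0.37 and 0.27 CPM in control and at 6.38, 7.72, 9.33 and 9.84 CPM in NASH vehicle libraries, a log2 fold change of 4.57 ± 0.28 (edgeR adjusted p = 5.3e-08). Tlr6, its neighbour and close relative (chr5:64952031-64960097, minus strand), rose less. It went from 0.31, 0.37, 0.48 and 0.45 CPM to 1.97, 2.83, 2.70 and 2.97 CPM, a log2 fold change of 2.69 ± 0.28 (edgeR adjusted p = 3.5e-06). Tlr2 (chr3:83836272-83841767, minus strand), which pairs with either of them, stood at 0.92, 1.66, 10.4 and 1.16 CPM in control and at 16.9, 21.9, 20.1 and 24.3 CPM in NASH vehicle libraries. Control 3 lay between the other controls and the NASH libraries, and the SE was wide, with a log2 fold change of 2.54 ± 0.62 (edgeR adjusted p = 0.0044). Without control 3 the log2 fold change was 4.07 (edgeR adjusted p = 8.3e-09), and over all alternatives the adjusted p of Tlr2 was 8.3e-09 to 0.02. Tlr4 (chr4:66827584-66930284, plus strand) had the same outlying control, with 2.27, 2.17, 6.36 and 1.74 CPM in control and 7.75, 12.3, 10.9 and 11.9 CPM in NASH vehicle libraries. Its log2 fold change was 1.76 ± 0.36 (edgeR adjusted p = 0.001), and 2.37 without control 3 (edgeR adjusted p = 3e-06, and 5.7e-07 to 0.0045 over all alternatives). The part of the smooth muscle and cholangiocyte RNA of control 3 in these 2 values was not tested beyond leaving that library out.

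Tlr5 (chr1:182954788-182976044, plus strand) moved the other way. It was at 5.92, 7.70, 4.66 and 6.89 CPM in control and at 4.41, 2.5, 2.97 and 1.94 CPM in NASH vehicle libraries. The lowest control and the highest NASH library were close to each other, and the log2 fold change was -1.09 ± 0.25 (edgeR adjusted p = 0.0018). Hepatocyte markers fell in the same comparison (8 of 8 genes), and their part in the value of Tlr5 was not tested. This call depended on the scaling. Without TMM the median over all genes was 0.62, and Tlr5 was at -0.46 (edgeR adjusted p = 0.097), still on the lower side. On log2(TPM + 1) values, where the median of all genes was 0.51, the difference was -0.26 (limma adjusted p = 0.1). Over all alternatives the adjusted p of Tlr5 was 8.9e-05 to 0.1.

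The second comparison set CDDO-Me against NASH vehicle livers. Of the 10 genes, 4 fell (Tlr7, Tlr8, Tlr13 and Tlr1) and 6 did not pass. The number that rose was 0 in edgeR, adjusted or at an unadjusted p under 0.05, and 0 in DESeq2. Over all tested genes 7.24% fell and 9.39% rose. The median log2 fold change was -0.90, against -0.01 for all tested genes, and 9 of the 10 fitted values were below 0. Without overlap between libraries, 5 genes were lower in CDDO-Me (Tlr1, Tlr2, Tlr6, Tlr7 and Tlr9), as were 10.2% of all tested genes.

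Tlr7 changed most. CDDO-Me 1 to 4 held 2.55, 2.74, 1.82 and 2.18 CPM, all well below the lowest NASH vehicle library at 5.52 CPM. The log2 fold change was -1.77 ± 0.21 (edgeR adjusted p = 9.7e-05), or 3.41-fold lower. Tlr8 was at 2.47, 1.65, 2.37 and 4.24 CPM in CDDO-Me libraries. Library 4 reached above the lowest NASH vehicle library at 4.03 CPM, and the log2 fold change was -1.41 ± 0.34 (edgeR adjusted p = 0.013). Tlr13 was at 10.1, 8.81, 10.5 and 18.6 CPM. Library 4 was again the highest and above NASH vehicle 1 at 14.01 CPM, and the log2 fold change was -0.93 ± 0.25 (edgeR adjusted p = 0.021). The call of Tlr13 did not hold when NASH vehicle 2, 3 or 4 or CDDO-Me 1, 2 or 3 was left out (edgeR adjusted p from 0.052 to 0.071, and 0.0012 to 0.071 over all alternatives). Tlr1 was at 4.79, 4.11, 3.72 and 4.82 CPM, below every NASH vehicle library, with a log2 fold change of -0.93 ± 0.22 (edgeR adjusted p = 0.013). Without NASH vehicle 4 it was -0.84 (edgeR adjusted p = 0.056, and 4.8e-05 to 0.056 over all alternatives).

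Tlr6 missed the threshold narrowly. It was at 1.78, 1.09, 1.72 and 1.52 CPM, below every NASH vehicle library, with a log2 fold change of -0.78 ± 0.25 (edgeR adjusted p = 0.0502, and 0.0088 to 0.15 over all alternatives). It passed in 10 of 24 alternatives, among them DESeq2 (-0.81, adjusted p = 0.013) and the fit without control 3 (-0.77, edgeR adjusted p = 0.042), but not without control 3 and CDDO-Me 4 (-0.77, edgeR adjusted p = 0.058). For Tlr2 the CDDO-Me libraries lay closely together at 11.6, 11.97, 9.85 and 11.8 CPM, all below the lowest NASH vehicle library at 16.9 CPM. Its log2 fold change of -0.88 ± 0.58 did not pass (edgeR adjusted p = 0.34). The model estimates 1 spread for each gene over all 3 groups, and control 3 enters it. Without control 3, a library that is in neither group, the value of Tlr2 stayed at -0.88 and passed (edgeR adjusted p = 0.0012, and 0.00082 to 0.52 over all alternatives). Tlr4 and Tlr9 did the same. Tlr4, at 5.90, 5.44, 5.18 and 8.97 CPM in CDDO-Me livers, gave -0.74 ± 0.35 with control 3 (edgeR adjusted p = 0.17) and -0.74 without it (edgeR adjusted p = 0.02, and 0.0024 to 0.34 over all alternatives). Tlr9, at 1.2, 0.88, 0.88 and 1.15 CPM, gave -1.28 ± 0.50 with control 3 (edgeR adjusted p = 0.094) and -1.28 without it (edgeR adjusted p = 0.017, and 0.0019 to 0.27 over all alternatives).

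The number of receptor genes lower in CDDO-Me was thus 4 with all 12 libraries, 8 without control 3, 8 without control 3 and CDDO-Me 4, and 9 when the 8 libraries of these 2 groups were fitted alone. Leaving out NASH vehicle 4 left 2. Over all genes the number lower was 1191, 1498, 2004 and 1588 in the first 4 of these fits, and 639 without NASH vehicle 4. The counts of receptors thus moved together with those of all genes. Without control 3 alone the fitted values stayed nearly in place. Without control 3 and CDDO-Me 4 some moved further from 0, among them Tlr13 from -0.93 to -1.23, Tlr8 from -1.41 to -1.72 and Tlr4 from -0.74 to -0.95. CDDO-Me 4 held the most macrophage marker RNA of its group, and the part of that RNA in these shifts was not tested. No member reversed its sign in any of these fits. Tlr3, at 7.16, 6.07, 5.66 and 8.92 CPM in CDDO-Me libraries, overlapped the NASH vehicle range and gave -0.55 ± 0.24 (edgeR adjusted p = 0.13, and 0.022 to 0.31 over all alternatives). It did not pass without control 3 (-0.55, edgeR adjusted p = 0.065) and passed without control 3 and CDDO-Me 4 (-0.69, edgeR adjusted p = 0.022). Tlr5 was the one member with a value above 0, with 4.42, 3.76, 4.63 and 3.56 CPM in CDDO-Me libraries and a log2 fold change of 0.47 ± 0.24 (edgeR adjusted p = 0.21). Without NASH vehicle 1, the highest of its group for Tlr5, it was 0.73 (edgeR adjusted p = 0.04, and 0.04 to 0.47 over all alternatives).

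**Figure D3:**
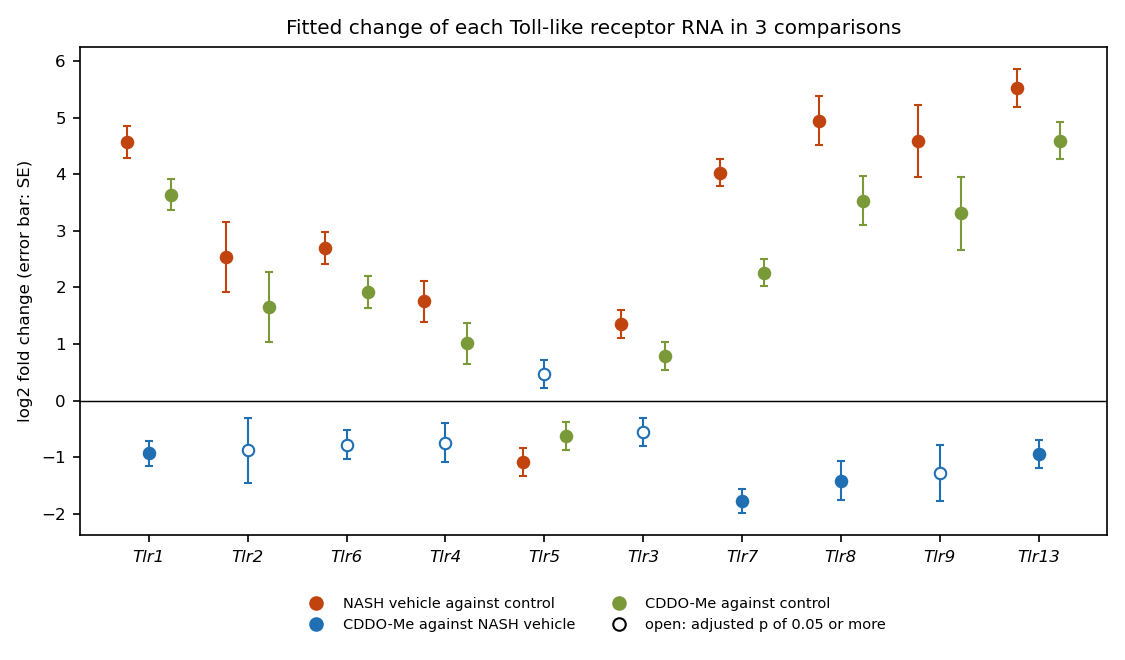
Fitted log2 fold change (vertical axis) of each Toll-like receptor gene in the 3 comparisons, with SE as error bars and open circles for an adjusted p of 0.05 or more. In NASH vehicle against control 9 genes lie between 1.35 and 5.52 and Tlr5 at -1.09; in CDDO-Me against NASH vehicle Tlr7 is lowest at -1.77 and Tlr5 alone is above 0.

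The third comparison set CDDO-Me against control livers, and it shares its libraries with the other comparisons. Here 9 genes were higher and Tlr5 lower, against 26.2% higher and 23.6% lower over all tested genes. The median log2 fold change was 2.09, against 0.03 for all tested genes. The highest values were those of Tlr13 (4.59 ± 0.33), Tlr1 (3.64 ± 0.28), Tlr8 (3.53 ± 0.43) and Tlr9 (3.31 ± 0.65), with edgeR adjusted p of 0.00086 or less. Tlr7, at 5.52 or more CPM in NASH vehicle and 1.82 to 2.74 CPM in CDDO-Me livers, remained 4.78-fold above control (log2 fold change 2.26 ± 0.24, edgeR adjusted p = 5.7e-06). Without overlap between libraries, 6 genes were above control (22.6% of all tested genes) and Tlr5 below it (21.1%). For Tlr2, Tlr3 and Tlr4 the ranges overlapped through control 3. Their log2 fold changes were 1.66 ± 0.61, 0.80 ± 0.25 and 1.01 ± 0.36 (edgeR adjusted p = 0.043, 0.016 and 0.032). Without control 3 they were 3.19, 1.06 and 1.63 (edgeR adjusted p = 9.3e-08, 0.0017 and 9.6e-05), whereas leaving out any other library ended the call of Tlr2 (edgeR adjusted p from 0.057 to 0.099). The call of Tlr4 ended without control 1, 2 or 4 or without CDDO-Me 1 or 4 (edgeR adjusted p from 0.051 to 0.1), and that of Tlr3 without control 2 or CDDO-Me 4 (0.051 and 0.055). Tlr5 passed barely at -0.62 ± 0.24 (edgeR adjusted p = 0.048), and leaving out any 1 of 9 of the 12 libraries ended that call (edgeR adjusted p from 0.055 to 0.13), as did leaving out control 3 and CDDO-Me 4 together (-0.68, edgeR adjusted p = 0.051).

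Macrophage marker RNA moved in the direction of the fitted values of all receptors except Tlr5 in all 3 comparisons. In CDDO-Me against NASH vehicle, 6 of the 10 receptors did not pass. The counts of markers below stand beside these shares of all tested genes. In NASH vehicle against control 29.6% rose and 30.0% fell. In CDDO-Me against NASH vehicle 9.39% rose and 7.24% fell, and in CDDO-Me against control 26.2% were higher and 23.6% lower. All 12 macrophage markers rose in NASH vehicle against control, 10 of 12 fell in CDDO-Me against NASH vehicle, and all 12 were higher in CDDO-Me than in control. Their summed level was 154 to 239 CPM in control, 1892 to 3601 CPM in NASH vehicle and 1036 to 1887 CPM in CDDO-Me libraries. None of the 12 markers was at 0 in any group. Markers of monocyte-derived and lipid-associated macrophages went from 49.4 to 106 CPM in control to 985 to 2179 CPM in NASH vehicle and 666 to 1463 CPM in CDDO-Me livers, with 8 of 8 genes higher in NASH and 3 of 8 lower with CDDO-Me. Kupffer cell markers gave 3 higher, 2 lower and 2 not passed in NASH, and 0 of 7 passed in edgeR between CDDO-Me and NASH vehicle (2 at an unadjusted p under 0.05 and 2 in DESeq2). Of the other cells known for Tlr7 and Tlr9, B cells had 0 of 7 markers that passed in NASH in edgeR, 0 at an unadjusted p under 0.05 and 0 in DESeq2. Their sum was 3.2 to 7.3 CPM in control and 4.7 to 5.8 CPM in NASH vehicle libraries. In CDDO-Me against NASH vehicle 2 of 7 B cell markers rose, to a sum of 7.7 to 11.5 CPM. Plasmacytoid dendritic cell markers summed to 159.5 to 197.6, 227.7 to 278.2 and 196.5 to 264.4 CPM in the 3 groups, with 3 of 6 tested genes higher in NASH and 1 of 6 lower with CDDO-Me. Conventional dendritic cell markers gave 6 of 7 and neutrophil markers 5 of 5 tested genes higher in NASH, and with CDDO-Me 1 of 5 neutrophil markers was lower. T and NK cell markers gave 6 of 8 higher in NASH and 1 of 8 lower with CDDO-Me. Stellate cell markers summed to 134 to 156 CPM in control, 239 to 321 CPM in NASH vehicle and 209.6 to 234 CPM in CDDO-Me libraries, with 6 of 7 higher in NASH and 2 of 7 lower with CDDO-Me. Sinusoidal endothelial markers moved the other way, from 199 to 218 CPM in control to 95.3 to 161 CPM in NASH vehicle and 177 to 262 CPM in CDDO-Me libraries, with 4 of 7 lower in NASH and 5 of 7 higher with CDDO-Me. No stellate or sinusoidal endothelial marker was at 0 in any group. The part of any of these cells in the receptor values was not tested.

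Each receptor was therefore also set against macrophage marker RNA within the same library, as its log2 CPM minus the mean log2 CPM of the 12 markers. In this measure a value that does not move means that a receptor's RNA changed as the marker RNA did, if both are well above 0. The log2 CPM carry a prior count of 2, which compresses levels near 0. Tlr1, Tlr6, Tlr7, Tlr8, Tlr9 and Tlr13 had 10 to 48 reads each over the controls, so their rise from control is understated here. From control to NASH vehicle, Tlr13, Tlr1 and Tlr7 were above their control range, by 1.78, 0.87 and 0.30 log2 units. Of all tested genes 0.766% were above it, and the median log2 fold change of the 12 markers was 3.43. For Tlr7 the lowest NASH library, at -4.07, was barely above the highest control at -4.08. Tlr8 and Tlr9 had higher means but overlapped, and Tlr2 overlapped widely. Tlr3, Tlr4, Tlr5 and Tlr6 were below their control range, by 2.14, 1.63, 4.67 and 1.03 log2 units, as were 89.9% of all tested genes. The count above the control range was not stable, with 1 gene when Adgre1, Csf1r and Cd68 alone served as markers and 0 on log2(TPM + 1) values, a scale that compresses genes below 1 TPM.

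**Figure D4:**
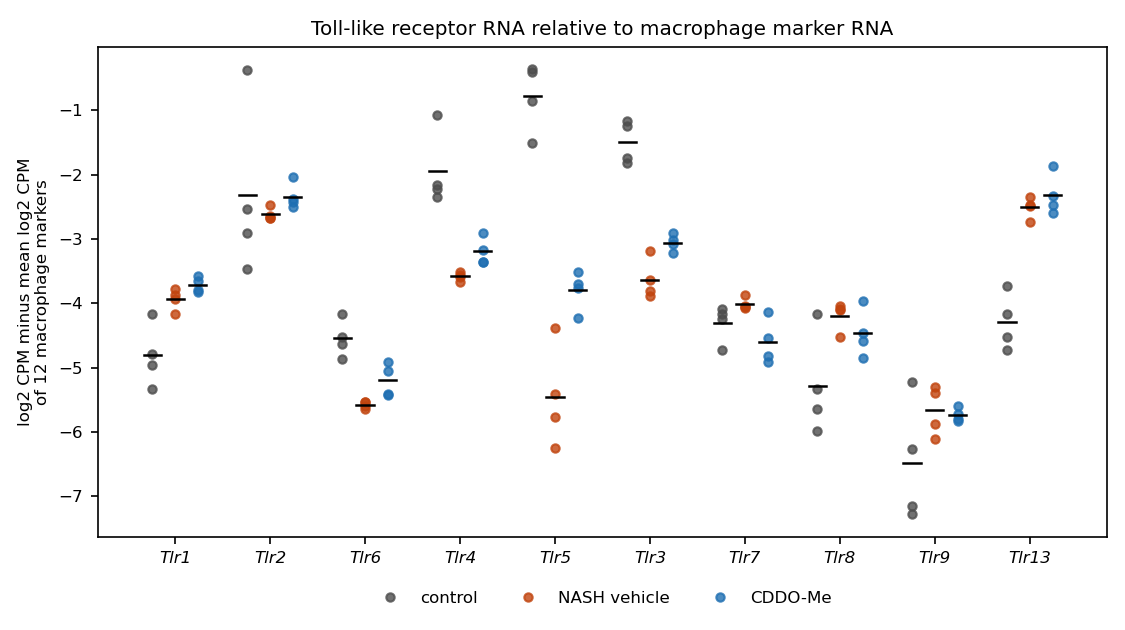
Level of each Toll-like receptor gene relative to macrophage marker RNA (vertical axis, log2 CPM minus the mean log2 CPM of 12 markers) in every library, with bars for group means. Tlr13 rises from -4.29 in control to -2.51 in NASH vehicle and stays at -2.32 in CDDO-Me; Tlr7 is the one gene whose CDDO-Me libraries all lie below the NASH vehicle libraries, and Tlr5 the one with the widest shift between control and NASH vehicle.

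From NASH vehicle to CDDO-Me, Tlr7 was the one receptor whose libraries all lay lower relative to macrophage marker RNA. The difference was -0.60 log2 units, with libraries at -4.54, -4.14, -4.82 and -4.91 against -4.07, -4.04, -3.87 and -4.06, and 0.273% of all tested genes were below their NASH vehicle range in this measure. CDDO-Me 2 lay close to the NASH libraries, and with Adgre1, Csf1r and Cd68 alone, or on log2(TPM + 1) values, Tlr7 overlapped the NASH vehicle range. Tlr1, Tlr2, Tlr3, Tlr8, Tlr9 and Tlr13 overlapped it in the main measure, with differences of -0.28 to 0.58. Tlr4, Tlr5 and Tlr6 were above it, by 0.39, 1.66 and 0.38, as were 73.4% of all tested genes. Against control, Tlr13 and Tlr1 were above the control range in CDDO-Me livers (1.58% of all tested genes) and Tlr3, Tlr4, Tlr5 and Tlr6 below it (81.9%).

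The other genes of the pathway were described by role, beginning with the proteins that hand ligands to the surface receptors. The count of each list stands beside the shares of all tested genes. Those were 29.6% higher and 30.0% lower in NASH, and 9.39% higher and 7.24% lower with CDDO-Me. Of 6 coreceptors and ligand carriers, 5 were higher in NASH vehicle than in control and 1 did not pass (median log2 fold change 3.58). Cd14, which passes lipopolysaccharide to Tlr4, went from 3.37 ± 3.66 CPM to 39.5 ± 6.8 CPM (SD, n = 4). Control 3 held 8.84 CPM of it, against 1.25 to 1.75 CPM in the other controls. Ly96, the MD-2 subunit of the Tlr4 complex, rose less, from 3.73 ± 0.23 to 6.08 ± 0.27 CPM (log2 fold change 0.71 ± 0.14, edgeR adjusted p = 0.00073). Cd180 and Ly86, which form a Toll-like complex of B cells and macrophages, rose by 4.33 ± 0.41 and 3.82 ± 0.24 on the log2 scale. They fell again with CDDO-Me, by 1.31 and 1.13 (edgeR adjusted p = 0.021 and 0.0022). Cd36, a scavenger receptor that assists Tlr2, was at 25.1 ± 5.4 CPM in control, 314 ± 47 CPM in NASH vehicle and 440 ± 58 CPM in CDDO-Me livers, a difference between the last 2 groups that did not pass (0.48 ± 0.16, edgeR adjusted p = 0.06). With CDDO-Me, 2 of the 6 fell and 1, Lbp, rose.

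Endosomal receptors need chaperones to reach the endosome and proteases that trim them there. Of 15 such genes, 10 rose and 1 fell in NASH, with a median of 1.21, and 10 fell and 5 did not pass with CDDO-Me, with a median of -0.62. Unc93b1, the carrier of Tlr3, Tlr7, Tlr8, Tlr9 and Tlr13 to endosomes, went from 38.4 ± 6.5 CPM in control to 119 ± 20 CPM in NASH vehicle and 81.4 ± 8.2 CPM in CDDO-Me livers. Its log2 fold changes were 1.63 ± 0.15 in NASH (edgeR adjusted p = 9.1e-07) and -0.55 ± 0.14 with CDDO-Me (edgeR adjusted p = 0.018). The proteases Ctss and Lgmn rose by 4.97 ± 0.30 and 2.40 ± 0.11 and fell by 1.13 and 0.96. Ctss is also one of the 12 macrophage markers. Pld3 and Pld4, exonucleases that degrade the DNA and RNA these receptors sense, rose by 2.02 ± 0.15 and 3.17 ± 0.19 and fell by 1.02 and 0.68 (edgeR adjusted p = 0.0004 and 0.016). Nrros, a negative regulator of Toll-like receptors, rose by 1.82 ± 0.13 and fell by 0.87.

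Of 6 adaptors, 2 rose and 1 fell in NASH, and Myd88 and Ticam1 were not among them. With 29.6% of all tested genes higher and 30.0% lower, these counts on 6 genes were not set apart from the background. Myd88 was at 21.9 ± 0.6 CPM in control, 23.5 ± 1.1 CPM in NASH vehicle and 20.9 ± 1.9 CPM in CDDO-Me livers, and passed in none of the 3 comparisons (edgeR adjusted p = 0.28, 0.18 and 0.56). Only 42.4% to 46.2% of its reads were unique to 1 place in the genome. Ticam1, or TRIF, the adaptor of Tlr3, was at 16 ± 4.3, 18.9 ± 1.5 and 18.1 ± 0.9 CPM and passed in none either (edgeR adjusted p = 0.19, 0.82 and 0.37). Ticam2, which links Tlr4 to Ticam1, rose by 4.39 ± 0.53 and Pik3ap1 by 1.02 ± 0.14 on the log2 scale, and Tirap, the bridge between Tlr2 or Tlr4 and Myd88, fell by 0.83 (edgeR adjusted p = 7e-05). Ticam2 had only 2, 4, 4 and 0 reads in controls 1 to 4, of which 60.0% were unique, so the size of its rise is uncertain. With CDDO-Me, 0 of 6 passed in edgeR (1 at an unadjusted p under 0.05 and 1 in DESeq2), where 9.39% of all tested genes rose and 7.24% fell.

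Of 18 kinases and ubiquitin ligases that carry the signal, 5 rose and 6 fell in NASH (median -0.12), where 29.6% of all tested genes rose and 30.0% fell, so these counts were near the background. With CDDO-Me 5 rose and 2 fell (median 0.03), where 9.39% of all tested genes rose and 7.24% fell. Irak1, a kinase that Myd88 recruits, was at 76.7 ± 2.6, 61.1 ± 2.0 and 83.8 ± 4.2 CPM in the 3 groups, and Ikbkg, the NEMO subunit of the IkB kinase, at 89.5 ± 16.7, 72.7 ± 4.8 and 121 ± 8 CPM. Both were lower in NASH (edgeR adjusted p = 0.00093 and 0.046) and higher with CDDO-Me than in NASH vehicle (edgeR adjusted p = 0.00065 and 0.0013). Map3k8 and Ikbke rose in NASH, by 1.83 ± 0.23 and 0.99 ± 0.17, without passing with CDDO-Me.

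Of 9 transcription factors at the end of the signal, 8 rose and 1, Irf3, fell in NASH (median 1.06). With CDDO-Me 6 fell and 3 did not pass (median -0.60). Irf7, the interferon regulatory factor downstream of Tlr7 and Tlr9, was at 24.2 ± 7.9, 67.4 ± 20.1 and 22.7 ± 4.5 CPM. It fell by 1.57 with CDDO-Me (edgeR adjusted p = 0.0013) and did not pass against control (-0.09 ± 0.25, edgeR adjusted p = 0.77). Irf8, a myeloid factor, was at 5.84 ± 0.43, 43.7 ± 8.6 and 24 ± 4.4 CPM, with 28.7% to 38.9% of its reads unique. Nfkb1 rose by 0.83 ± 0.08 and fell by 0.56 (edgeR adjusted p = 0.00047).

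Among 14 inhibitors of the signal, 8 rose and 1 fell in NASH (median 0.68). With CDDO-Me 0 of 14 passed in edgeR (3 at an unadjusted p under 0.05 and 2 in DESeq2, median -0.14), where 9.39% of all tested genes rose and 7.24% fell. Irak3, or IRAK-M, a brake found in monocytes and macrophages, went from 0.97 ± 0.13 to 4.74 ± 0.50 CPM in NASH, and was at 3.41 ± 0.48 CPM with CDDO-Me (-0.48 ± 0.18, edgeR adjusted p = 0.093). Tnfaip3, Tnip1 and Zc3h12a, which restrain NF-kB signalling or its target RNAs, rose by 2.5 ± 0.4, 2.08 ± 0.16 and 1.60 ± 0.16.

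Of 10 endogenous molecules reported to engage Tlr2 or Tlr4, 8 rose and 1 fell in NASH (median 2.90), and 3 fell with CDDO-Me (median -0.37). Lgals3, or galectin-3, went from 2.0 ± 0.8 to 224 ± 64 CPM, and the matrix proteoglycans Bgn and Vcan rose by 2.22 ± 0.21 and 3.74 ± 0.37. These 3 were also those that fell with CDDO-Me, by 1.08, 0.82 and 1.15 (edgeR adjusted p = 0.024, 0.013 and 0.023). Saa3 did not fall, with 3.58 ± 1.40 CPM in control, 23.8 ± 4.3 CPM in NASH vehicle and 30.5 ± 8.4 CPM in CDDO-Me livers. The difference between the last 2 groups did not pass. Of the cytokine and chemokine genes that the receptors are known to induce, 12 of 15 could be tested, and Il6, Ifnb1 and Il10 had too few reads. In NASH 11 of the 12 rose and 1 did not pass (median 3.39), and with CDDO-Me 4 fell and 8 did not pass (median -0.73). Ccl3 went from 0.06 ± 0.07 CPM in control to 2.40 ± 0.30 CPM in NASH vehicle and 0.57 ± 0.11 CPM in CDDO-Me livers (-2.05 ± 0.43 between the last 2, edgeR adjusted p = 0.0059). Ccl4 fell by 2.29 (edgeR adjusted p = 0.0018) and Il1b and Il12b were the other genes that fell. Tnf, at 0.06 ± 0.07, 2.35 ± 0.27 and 1.21 ± 0.37 CPM, did not pass between CDDO-Me and NASH vehicle (edgeR adjusted p = 0.14).

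**Figure D5:**
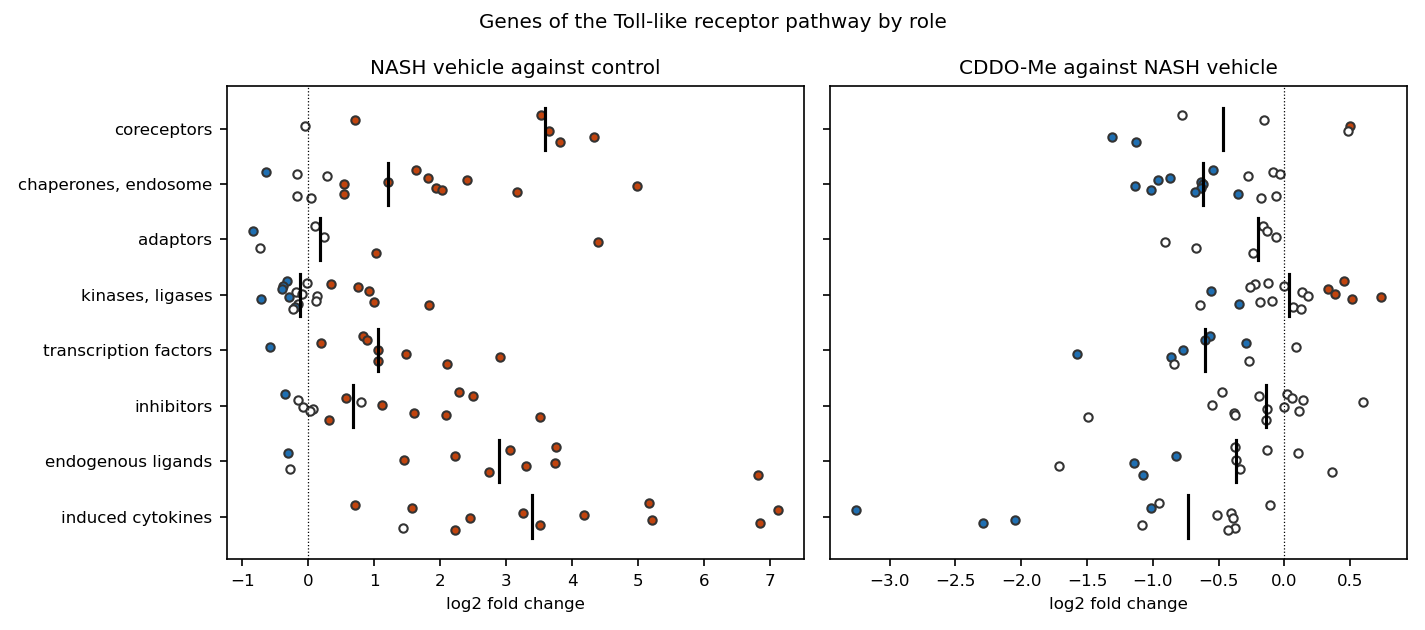
Log2 fold change (horizontal axes) of the tested genes of 8 pathway lists by role, NASH vehicle against control on the left and CDDO-Me against NASH vehicle on the right, with filled points for genes that passed, open points for those that did not, and black bars for medians. Adaptors and kinases centre near 0 in both panels, with medians of 0.17 and -0.12 on the left, whereas coreceptors, endogenous ligands and induced cytokines have medians of 3.58, 2.90 and 3.39 on the left.

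To see which genes ran closest to each receptor over the 12 libraries, the root mean square difference of log2 CPM, each gene centred on its own mean, was computed against 12731 genes with a mean of at least 1 CPM. The nearest to Tlr7 were Slc37a2 (0.24 log2 units), Fcgr1 (0.25) and Arhgap19 (0.29). Fcgr1, a high-affinity IgG receptor, is one of the 12 macrophage markers. The nearest to Tlr13 were Myo1f (0.26), Atp6v0d2 (0.26) and Clec4e (0.27), and those to Tlr8 were Glipr1 (0.31), Evi2a (0.34) and Gpr137b (0.34). The log2 CPM used here carry a prior count of 2, which compresses levels near 0. Clec4e is close to Tlr13 only on that scale, as its fitted log2 fold change in NASH was 9.23, against 5.52 for Tlr13. Tlr1 ran with Nckap1l (0.18), a haematopoietic actin regulator, and then Amz1 (0.20) and Arhgap22 (0.27). Tlr9 had Sh3pxd2b (0.33), Was (0.34) and Evi2b (0.36). Tlr2 was nearest to Adap1 (0.26), B4galt6 (0.31) and Emilin2 (0.33), Tlr4 to Slc6a8 (0.11), Ano6 (0.16) and Neurl3 (0.16), and Tlr6 to Gcnt1 (0.15), Gbp8 (0.16) and Hip1 (0.19). For Tlr3 they were Lama4 (0.17), Tor3a (0.18) and Adgra2 (0.20). Those nearest to Tlr5 had values below 0 in NASH, as it did. They were Dhtkd1 (0.18), Cabyr (0.18) and Thrb (0.19), of which Thrb, a thyroid hormone receptor, gave a log2 fold change of -1.17 in NASH and 0.48 with CDDO-Me.

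Tlr1 and Tlr6 are near copies over part of their coding sequence, which limits how reads of 75 bases can be assigned. The gene pair shares 340 windows of that length, 10.3% of those of Tlr1 and 9.25% of those of Tlr6, and no other pair among the 10 shares one. The longest identical run in the coding sequence spans 229 bases, at chr5:64925537-64925765 in Tlr1 and chr5:64953828-64954056 in Tlr6 (GRCm38, minus strand, GENCODE M21). It is shown 5′ to 3′ because a read inside it fits both genes.

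Tlr1 and Tlr6: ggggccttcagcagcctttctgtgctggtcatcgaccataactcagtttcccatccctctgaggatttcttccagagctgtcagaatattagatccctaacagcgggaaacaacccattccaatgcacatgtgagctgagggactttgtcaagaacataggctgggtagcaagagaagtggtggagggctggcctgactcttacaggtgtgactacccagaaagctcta

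Unique reads made up 93.4% of all reads of Tlr1 and 95.5% of those of Tlr6, and 98.8% or more for each of the other 8 genes. With unique reads alone no call of Tlr1 changed, and Tlr6 passed between CDDO-Me and NASH vehicle (-0.78, edgeR adjusted p = 0.042). Intron reads made up 46.3% of the reads of Tlr4 and 23.1% of those of Tlr5, against 12.3% or less for the others. With exon reads alone, Tlr4 did not pass between CDDO-Me and control (0.89, edgeR adjusted p = 0.11). Tlr3 overlaps the antisense gene Gm45542, which held 5 reads over the 12 libraries, and the strand of the kit is not given in the sources used here.

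Promoters of 300 bases (RefSeq, GRCm38.p6, 250 bases before and 50 after each start site) were searched on both strands for 4 motifs in 8 members with an entry, of which Tlr1 and Tlr6 have 2 each. The GAGGAAG core bound by PU.1, a myeloid transcription factor, was found in Tlr1, Tlr9 and Tlr13, and in 13.6% of 32851 promoters. The interferon-stimulated response element, GAAA and again GAAA with any 2 bases between, was found in Tlr6 (3.44% of promoters), the NF-kB site, GGG and TTTCC with any 2 bases between, in Tlr3 (1.63%) and the antioxidant response element TGACNNNGC, the NRF2 motif, in Tlr9 (12.4%). The other entry of Tlr1 (chr5:64932650-64932949) and that of Tlr6 (chr5:64959999-64960298) held no match to any of the 4 motifs. The promoters with the PU.1 core, those of 3 members with fitted fold changes of 23.8 to 46.0 in NASH, are shown 5′ to 3′ on the strand of the gene, with motif matches in capitals.

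Tlr13 (chrX:106143025-106143324, plus strand): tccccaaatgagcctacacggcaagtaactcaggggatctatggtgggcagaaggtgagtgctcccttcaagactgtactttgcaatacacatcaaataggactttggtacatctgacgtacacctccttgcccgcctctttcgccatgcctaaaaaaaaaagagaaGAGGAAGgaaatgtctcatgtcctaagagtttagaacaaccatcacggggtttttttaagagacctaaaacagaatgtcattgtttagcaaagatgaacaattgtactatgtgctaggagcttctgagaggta

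Tlr9 (chr9:106222348-106222647, plus strand): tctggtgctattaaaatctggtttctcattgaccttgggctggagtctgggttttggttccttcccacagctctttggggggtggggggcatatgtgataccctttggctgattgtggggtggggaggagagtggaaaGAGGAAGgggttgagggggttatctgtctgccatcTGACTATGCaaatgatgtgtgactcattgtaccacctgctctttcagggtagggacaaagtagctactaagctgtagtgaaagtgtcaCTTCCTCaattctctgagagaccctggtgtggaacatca

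Tlr1 (chr5:64933509-64933808, minus strand): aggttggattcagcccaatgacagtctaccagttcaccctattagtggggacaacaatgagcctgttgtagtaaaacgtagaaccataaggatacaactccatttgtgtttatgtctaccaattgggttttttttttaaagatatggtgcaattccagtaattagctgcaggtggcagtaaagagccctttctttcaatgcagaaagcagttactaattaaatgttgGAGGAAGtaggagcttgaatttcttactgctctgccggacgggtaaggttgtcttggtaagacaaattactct

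The capitals mark the PU.1 core at position -83 from the start site in Tlr13, at -112 and, on the other strand, 11 in Tlr9, and at -23 in Tlr1. In Tlr9 the antioxidant response element, TGACTATGC, begins at -77. Tlr8 also rose strongly and held no match to any of the 4 motifs in its window, and for Tlr4 and Tlr7 no promoter was analysed here. A match is a description of the letters and not a measured binding site.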

How the data were processed

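Poly(A) RNA of mouse liver was sequenced as 12 libraries (NEBNext Ultra II, 75 bases paired-end) and, per the submitters' processing notes, mapped to GRCm38. The aligner, counting tool and kit strand were not given in the sources used here. The authors deposited whole-read counts per gene (total, unique, exon, junction and intron reads), together with TPM and RPKM. Total gene reads were tested as deposited. The authors' TPM served for levels between genes, and the authors' RPKM as an alternative for their order.

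In edgeR 4.0.16 (R 4.3.3), filterByExpr by group (minimum count 10, minimum total 15) left 16456 genes. Libraries were scaled by TMM, and robust quasi-likelihood fits of all 12 libraries gave each of the 3 groups its own mean. Tests were two-sided, with Benjamini-Hochberg adjustment over all tested genes at 0.05. Fold changes used a prior count of 0.125 and log2 CPM a prior count of 2. SEs were derived from the fitted log2 fold change and the F statistic (size over the root of F). The fit was also run on simulated counts. These were drawn from NASH vehicle means in all 3 groups, with some genes changed in CDDO-Me, so they cannot test the scaling between groups. Counting intervals (95%) and the limit of 3 reads behind a count of 0 cover counting error only.

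The members, the gene lists and the tests were chosen with earlier results of these data known. Named were the 10 members, Myd88, Ticam1, Cd14, Ly96, Unc93b1, Irak3, and from each pathway list up to 4 genes with the lowest p in NASH and 2 with CDDO-Me. Traf3, Chuk, Irf5 and Cxcl10 also met this rule and are not described above. Their mean CPM in control, NASH vehicle and CDDO-Me were 17.3, 29.0 and 24.2 for Traf3 and 128, 77.6 and 111 for Chuk. They were 17.9, 37.2 and 21.8 for Irf5, and 1.97, 10.8 and 8.25 for Cxcl10, of whose reads 38.5% to 39.0% were unique. The 3 genes nearest to each member were also named. Other genes named as those that passed in a list were chosen after their values were seen. The labels do not say whether replicate numbers link libraries across groups, and the main fit treated them as unlinked. Deviations of same-numbered libraries correlated at -0.22 to 0.19, above 0.1 in 2 of 12 cases. With so few libraries in a group this cannot exclude a link.

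Alternatives were DESeq2 size factors, DESeq2 1.42.0, library totals without TMM, no filter, 50 reads in 4 libraries, a replicate block, fits of only the 8 libraries compared, unique reads, exon reads, limma-trend (limma 3.58.1) on log2(TPM + 1), a prior count of 2 and leaving out each library. A fit of 10 libraries without control 3 and CDDO-Me 4 was added after seeing the data.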

Additional observations from a re-analysis of the deposited data

Results flagged for a closer look

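The level in CPM of each receptor was checked for a library far from the other 3 of its group, over 30 group values, and 5 were found. Chance gives about 1 in 20. Tlr2 was high in control 3 at 10.4 CPM, against 0.92 to 1.66 CPM in the other controls. Tlr4 was high in the same library at 6.36 CPM, against 1.74 to 2.27 CPM. Tlr7 was high in control 1 at 0.576 CPM, against 0.444 to 0.461 CPM, a gap that rests on 15 reads against 10 to 12. Tlr7 was low in NASH vehicle 1 at 5.52 CPM, against 8.49 to 9.04 CPM, and that library was also the lowest of its group in macrophage markers. Tlr8 was high in control 4 at 0.447 CPM, against 0.148 to 0.184 CPM, from 10 reads against 4 in each of the other controls.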

How the results depend on the processing

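In NASH vehicle against control, 9 receptor genes rose under every alternative run, and Tlr5 ended as a call in 2. Genes lower numbered 0 of 10 without TMM and 0 on log2(TPM + 1), against 1. Over all genes the calls were 4874 higher and 4945 lower, 9908 and 1326 without TMM, and 10905 and 873 on log2(TPM + 1). The share of calls that were higher went from 49.6% to 88.2% and 92.6%, as the median of all genes moved to 0.62 and 0.51. In CDDO-Me against NASH vehicle, 4 receptor genes were lower, 6 with DESeq2, 7 on log2(TPM + 1), 9 with the 8 libraries of the 2 groups, 8 without control 3 and CDDO-Me 4, and 2 to 8 when 1 library was left out. Genes higher were 0 to 1 when 1 library was left out. Tlr7 and Tlr8 passed under every alternative run. Over all genes, 1545 were higher (926 without TMM, 779 on log2(TPM + 1), 930 to 1972 with 1 library left out). Those lower numbered 1191 (1853 with DESeq2, 2607 on log2(TPM + 1), 1588 with the 8 libraries of the 2 groups, 2004 without control 3 and CDDO-Me 4, 617 to 1498 with 1 library left out). The share of calls that were higher was 56.5%, and 36.8% and 23% without TMM and on log2(TPM + 1). In CDDO-Me against control, 4317 genes were higher and 3881 lower, 8678 and 1125 without TMM, and 8845 and 812 on log2(TPM + 1), a share higher of 52.7%, 88.5% and 91.6%. The 1 receptor lower, Tlr5, became 0 without TMM, with no filter, with 50 reads in 4 libraries, on log2(TPM + 1) and without control 3 and CDDO-Me 4, and was 0 to 1 when 1 library was left out, when 6 to 9 receptors were higher. Relative to macrophage markers, Adgre1, Csf1r and Cd68 alone gave 1 gene above in NASH against control, and 5 above and 0 below in CDDO-Me against NASH vehicle. Values of log2(TPM + 1) gave 0 above and 9 below, 5 above and 0 below, and, against control, 0 above and 8 below. With 1 library left out, the count above was 3 to 5 in CDDO-Me against NASH vehicle and 2 to 4 against control. In the order by TPM, 6 to 8 genes kept their rank in NASH vehicle and 4 to 10 in CDDO-Me when 1 library was left out. No receptor changed sign in any alternative. Except where the construction shows it, the cause was not tested.

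With the replicate number as a block, 9 receptor genes rose and 1 fell in NASH vehicle against control, and 4 fell in CDDO-Me against NASH vehicle. In CDDO-Me against control 9 rose and 0 fell, as Tlr5 ended (-0.63, edgeR adjusted p = 0.064). The block changed the 4874 genes higher in NASH to 4749, and 0 of 12 libraries resembled its own number best. Depth limits Tlr9, with 10 reads in the controls, and Tlr8, with 22.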
